A study of Mus musculus with 18 samples.

Results

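Aminoacyl-tRNA synthetases are the enzymes that attach each amino acid to its transfer RNA before it reaches the ribosome. The synthetase genes were taken by symbol: a single amino acid letter followed by ars with an ending of 1, 2 or no digit, the joint glutamyl-prolyl enzyme Eprs1, and Farsa and Farsb, the subunits of the phenylalanyl enzyme. The rule found 36 of the 14695 genes of the count table. Of these, 17 have symbols ending in 2 and encode mitochondrial enzymes, and the other 19 encode cytosolic enzymes, although Gars1 and Kars1 each give rise to an enzyme for both compartments. Iars1, the cytosolic isoleucyl enzyme, carried no symbol in the table and was found by its identifier, ENSMUSG00000037851, so it stands outside the 36 and its values are given beside theirs.

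The samples were mouse primary CD8+ T cells from spleen and lymph node that had been targeted with CRISPR/Cas9 at Atf4, at Cebpg or at Rosa26, the last a site commonly used as a neutral control. Each genotype was cultured for 24 h with halofuginone or untreated. That gave 6 groups of 3 RNA sequencing libraries each, in the order Atf4 KO, Cebpg KO and Rosa26 with halofuginone and the same genotypes untreated. Whether the 3 libraries of a group stem from different mice or cultures is not stated in the labels, so the spread behind each p-value is that between these libraries and may be technical.

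In the cytosol, 8 of the synthetases, among them Eprs1, Iars1, Lars1, Mars1, Qars1, Rars1 and Kars1, sit together in the multi-synthetase complex, while the mitochondrial enzymes charge the transfer RNAs that serve the organelle's own ribosomes. Halofuginone blocks the prolyl-tRNA synthetase domain of EPRS1. Uncharged transfer RNA activates the kinase GCN2, whose phosphorylation of the initiation factor eIF2 slows general translation while favouring that of ATF4. ATF4 is a transcription factor that pairs with C/EBP proteins such as C/EBPγ. It is known to act on amino acid transporters, biosynthetic enzymes and many cytosolic synthetase genes.

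Libraries held 14.2 to 20.3 M (mega) counts. The targeted transcripts remained present: Atf4 mRNA stood at 300.1, 267 and 378 CPM (counts per M of library size, scaled by the TMM method) in Atf4 KO cells with halofuginone, against 357, 428 and 351 CPM in Rosa26 cells with halofuginone, and at 301, 281 and 274 CPM in untreated Atf4 KO cells, against 281, 267 and 256 CPM in untreated Rosa26 cells. Cebpg mRNA stood at 93.4, 104 and 105 CPM in Cebpg KO cells with halofuginone, against 169, 183 and 167 CPM in Rosa26 cells with halofuginone, and at 56.7, 58.5 and 53.9 CPM in untreated Cebpg KO cells, against 52.8, 55.1 and 53.0 CPM in untreated Rosa26 cells. A gene count need not fall when an edit disrupts the reading frame, so these levels do not check the genotype labels. All 5 CD8 T cell markers were measured, at 152 to 1472 CPM. Their sum was 2444 to 2965 CPM in Atf4 KO and 2575 to 2762 CPM in Cebpg KO cells with halofuginone, against 3229 to 3322 CPM in untreated Atf4 KO and 3241 to 3288 CPM in untreated Cebpg KO cells, and 2853 to 3354 CPM in Rosa26 cells with halofuginone, against 3095 to 3187 CPM in untreated Rosa26 cells. Of the lists for other cells, Cd79a and Cd79b (2 of 4 B cell markers) summed to 3.18 to 7.65 CPM, Cd68 (1 of 5 myeloid markers) lay at 2.25 to 6.87 CPM, Pf4 (1 of 4 erythroid and platelet markers) at 0 to 1.66 CPM, and 0 of 2 NK cell markers were measured. The sum of the CD4 list (Foxp3 and Zbtb7b, 2 of 3 measured) moved with the groups: it was 17.0 to 20.4 CPM in Atf4 KO, 15.4 to 17.4 CPM in Cebpg KO and 33.6 to 36.3 CPM in Rosa26 cells with halofuginone, and 11.8 to 13.9, 9.74 to 12.4 and 8.19 to 9.09 CPM in the same genotypes untreated. Over all libraries Foxp3 lay at 4.73 to 11.3 CPM and Zbtb7b at 1.85 to 29 CPM, so Zbtb7b made up most of the Rosa26 halofuginone sum. Cd68 lay at 4.18 to 6.87 CPM in Atf4 KO, 4.72 to 5.79 CPM in Cebpg KO and 2.79 to 4.23 CPM in Rosa26 cells with halofuginone, and at 2.40 to 3.45 CPM in Atf4 KO, 2.32 to 3.38 CPM in Cebpg KO and 2.25 to 2.46 CPM in Rosa26 cells untreated. The B cell sum lay at 3.18 to 5.07 CPM in Atf4 KO, 4.19 to 4.86 CPM in Cebpg KO and 4.79 to 7.203 CPM in Rosa26 cells with halofuginone, and at 5.67 to 6.70 CPM in Atf4 KO, 6.68 to 7.65 CPM in Cebpg KO and 6.22 to 7.18 CPM in Rosa26 cells untreated. Pf4 reached at most 0.275 CPM with halofuginone and was at least 0.538 CPM untreated. The part of these lists in the results below was not tested. In bulk RNA, fewer cells of a kind and less RNA per cell cannot be told apart.

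Cytosolic synthetase mRNAs were far more abundant than mitochondrial ones for their length. Per kilobase of annotated exon, the mean level in untreated Rosa26 cells ran from 12.9 CPM per kb for Cars1, the cysteinyl enzyme, to 115 CPM per kb for Vars1, the valyl enzyme. The 16 mitochondrial members other than Lars2 ran from 1.69 CPM per kb for Wars2, the tryptophanyl enzyme, to 18.6 CPM per kb for Iars2, the isoleucyl enzyme, and Iars2 alone among these 16 stood above a cytosolic member there. Lars2, the mitochondrial leucyl enzyme, stood at 248 CPM per kb, above every other synthetase, and is described apart because its level moved with an RNA of ribosomal sequence. In Rosa26 cells with halofuginone the leading cytosolic members per kilobase were Gars1 (108 CPM per kb), Vars1 (99.96 CPM per kb) and Wars1 (97.1 CPM per kb). Pars2, the mitochondrial prolyl enzyme, held the lowest single value of the family, 7.27 CPM, and a filter of 2 CPM in 3 libraries would have kept all 36.

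**Figure D1:**
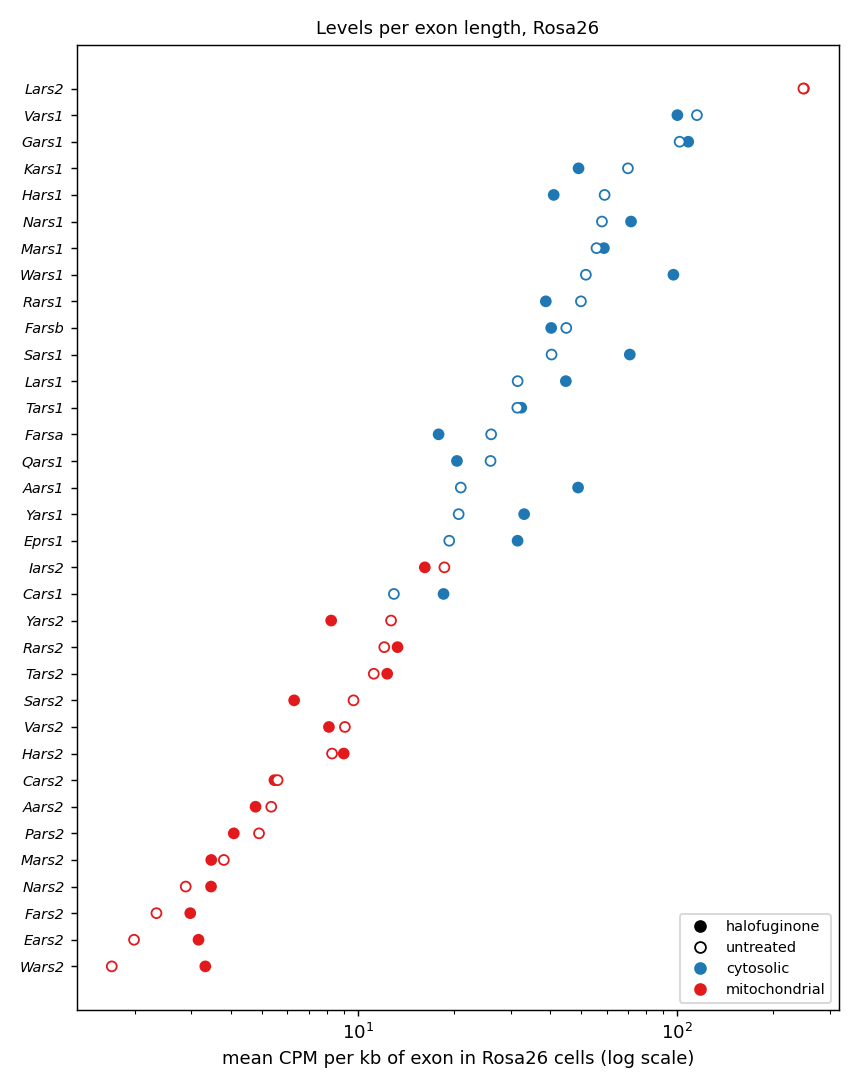
Mean level per kilobase of annotated exon in Rosa26 cells (x axis, CPM per kb, log scale, 3 libraries per mean) for 34 of the 36 synthetases (y axis), with halofuginone as filled points and untreated as open points, cytosolic in blue and mitochondrial in red. Lars2 stands at the top at 248 CPM per kb untreated, and below it the open cytosolic points lie above the open mitochondrial ones apart from that of Iars2.

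Summed over the 19 cytosolic members, synthetase mRNA was higher with halofuginone in Rosa26 cells and lower with it in each knockout. The sum was 2749, 2664 and 3042.5 CPM in Atf4 KO cells with halofuginone, against 3177, 3208 and 3165 CPM in untreated Atf4 KO cells. The Cebpg KO sums were 3105, 3038 and 3362 CPM with halofuginone, against 3629.7, 3665 and 3725 CPM untreated. In Rosa26 cells it was 4695, 5178 and 4460.1 CPM with halofuginone, against 4068, 4161 and 4074 CPM untreated. In none of the 3 genotypes did the treated and untreated sums overlap. The 16 mitochondrial members other than Lars2 summed to 557, 569 and 572 CPM in Atf4 KO, 590.2, 573 and 563 CPM in Cebpg KO and 604, 598 and 598 CPM in Rosa26 cells with halofuginone, against 651, 692 and 659.8 CPM in untreated Atf4 KO, 651, 635 and 649.9 CPM in untreated Cebpg KO and 625, 648 and 638 CPM in untreated Rosa26 cells. These mitochondrial sums were lower with halofuginone in all 3 genotypes, again without overlap. Iars2, the most abundant of the 16, weighs most in them. Its mean fell from 175 to 125 CPM in Atf4 KO, from 166 to 126 CPM in Cebpg KO and from 165 to 144 CPM in Rosa26 cells. Counted by gene at an adjusted p under 0.05, 4 of the 16 rose and 4 fell in Rosa26 cells, where 23.6% of all genes rose and 24.1% fell.

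A library measure moved with these sums. Malat1, a nuclear non-coding RNA, was lowest in Atf4 KO replicate 3 (1158 CPM, against 2404 and 3415 CPM in the other replicates), in Cebpg KO replicate 3 (1959.7 CPM, against 3237 and 3579.7 CPM) and in Rosa26 replicate 2 (672 CPM, against 2074 and 2607 CPM) of the halofuginone groups. The same 3 libraries had the highest cytosolic synthetase sum of their group. Untreated knockout libraries held 2026 to 2606 CPM of Malat1, against 858 to 1168 CPM in untreated Rosa26 libraries. Without those 3 halofuginone libraries, the median cytosolic fold change was -0.86 in Atf4 KO against Rosa26 cells with halofuginone (-0.87 with them), -0.53 in Cebpg KO against Rosa26 cells (-0.56 with them) and 0.04 for halofuginone in Rosa26 cells (0.08 with them).

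Halofuginone raised 8 of the 19 cytosolic synthetases in Rosa26 cells and lowered 7. The risen members were Aars1, Cars1, Eprs1, Lars1, Nars1, Sars1, Wars1 and Yars1, and the fallen ones included Farsa, Hars1, Kars1, Qars1, Rars1 and Vars1. A gene was counted as changed when its adjusted p was under 0.05 in edgeR's quasi-likelihood test, adjusted by Benjamini-Hochberg over all 14695 genes; fold changes are on the log2 scale with their standard error. By the same rule 23.6% of all genes rose and 24.1% fell, so changes in either direction were common in the table, and the median fold change was 0.08 for the cytosolic members and 0.02 for all genes. The fall of Vars1 (-0.20 ± 0.07, adjusted p = 0.0184) was past the threshold with all libraries but not without Rosa26 halofuginone replicate 1 (adjusted p = 0.0714) or 3 (0.102), or without untreated replicate 2 (0.0642).

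The drug's own target was among the risen genes. Eprs1, which carries both the glutamyl and the prolyl synthetase, stood at 565, 611 and 538 CPM in Rosa26 cells with halofuginone, against 343, 357 and 346 CPM in untreated Rosa26 cells. The groups did not overlap and the rise was 0.71 ± 0.06 (adjusted p = 9.22e-09). Its mitochondrial counterpart Pars2 gave 11.6, 14.2 and 12.02 CPM with halofuginone, against 14.5, 15.7 and 15.1 CPM untreated. That difference of -0.26 ± 0.13 did not pass the threshold (adjusted p = 0.108), although the values did not overlap.

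The largest rise of a cytosolic member was that of Aars1, the alanyl enzyme, at 455, 479.7 and 426 CPM in Rosa26 cells with halofuginone, against 191, 190.6 and 202 CPM untreated, a log2 fold change of 1.22 ± 0.06 (adjusted p = 5.76e-12). Every treated library held over 2 times the level of every untreated one. Part of the annotated Aars1 exons, 14.3% of their length, is shared with Exosc6 on the same strand, and how the authors' counting treated such reads is not given in the sources used here. Wars1, the tryptophanyl enzyme that interferon gamma also induces, stood at 355, 343 and 306 CPM with halofuginone, against 171, 183 and 180.5 CPM untreated (0.91 ± 0.08, adjusted p = 1.05e-08). Sars1, the seryl enzyme, stood at 347, 411 and 336 CPM with halofuginone, against 204, 213 and 205 CPM untreated (0.81 ± 0.08, adjusted p = 9.65e-08). None of these groups overlapped.

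Smaller rises came from 4 more cytosolic enzymes. Yars1, the tyrosyl enzyme, gave 199, 205 and 186 CPM with halofuginone, against 125, 122 and 121 CPM untreated (0.68 ± 0.05). Cars1 gave 119, 124 and 122 CPM with halofuginone, against 86.4, 85.2 and 83.7 CPM untreated (0.52 ± 0.05). Lars1, the leucyl enzyme, gave 239, 254 and 227 CPM with halofuginone, against 164, 180.4 and 164 CPM untreated (0.50 ± 0.06). In each case every treated library lay above every untreated one. Nars1, the asparaginyl enzyme, gave 295, 346 and 294 CPM with halofuginone, against 248, 258 and 252 CPM untreated, a narrower gap of 0.30 ± 0.06 (adjusted p = 0.000569). Iars1 stood at 356, 370.3 and 333 CPM with halofuginone, against 209, 202 and 205 CPM untreated, a rise of 0.78 ± 0.06.

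Fallen cytosolic members lay between -0.20 for Vars1 and -0.55 for Farsa. Farsa, the catalytic alpha subunit of the phenylalanyl enzyme, gave 79.6, 89.1 and 74.3 CPM in Rosa26 cells with halofuginone, against 116, 118 and 122 CPM untreated (-0.55 ± 0.08, adjusted p = 1.38e-05). Its partner Farsb, the beta subunit of the same enzyme, gave 105, 115 and 96.6 CPM with halofuginone, against 111, 117 and 125 CPM untreated, and these groups overlapped (-0.16 ± 0.07, adjusted p = 0.0763). Whether the 2 subunits differ in their response was not tested. Hars1, the histidyl enzyme, fell by 0.53, and Kars1, the lysyl enzyme, by 0.51. The 4 cytosolic members that did not pass, Farsb, Gars1, Mars1 and Tars1, lay between -0.16 and 0.09.

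**Figure D2:**
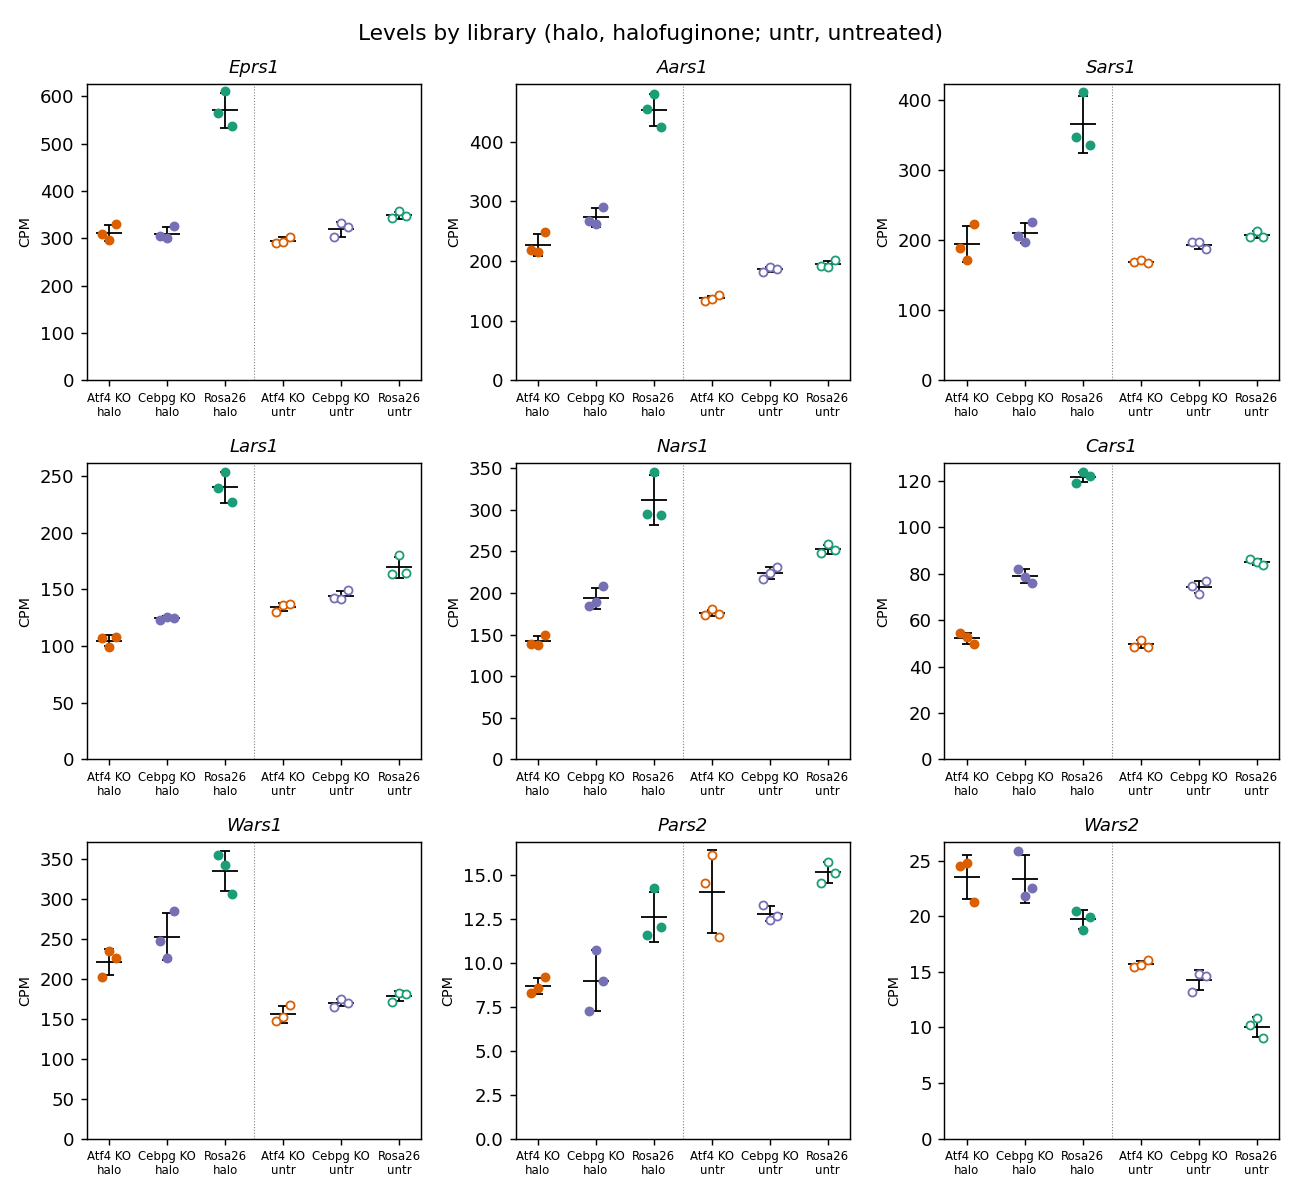
Level of 9 synthetases in each library (y axis, CPM from 0) by group (x axis), with halofuginone (filled) left of untreated (open), and on each side Atf4 KO, Cebpg KO and Rosa26; points are libraries, bars the mean and SD of 3. For Eprs1, Aars1, Sars1, Lars1, Nars1, Cars1 and Wars1 the Rosa26 halofuginone libraries lie above every other library.

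The response in Rosa26 cells was also counted over the cytosolic synthetases often given as ATF4 targets (Aars1, Cars1, Eprs1, Gars1, Iars1, Lars1, Mars1, Nars1, Sars1, Tars1, Vars1, Wars1 and Yars1). The list was drawn up with earlier results of these libraries known, so its direction is no independent evidence. Of its 13 genes 9 rose and 1, Vars1, fell, with a median of 0.52. Of the 7 other cytosolic members, among them Farsa, Farsb, Hars1, Kars1, Qars1 and Rars1, 0 rose and 6 fell, with a median of -0.47. At an unadjusted p under 0.05 the counts were 0 and 7, against 3878 and 3957 of all 14695 genes. Of the 8 enzymes of the multi-synthetase complex 3 rose (Eprs1, Iars1 and Lars1) and 4 fell, among them Kars1, Qars1 and Rars1, while of the 12 cytosolic enzymes outside it 6 rose and 3 fell. By catalytic class, 5 of 9 class I cytosolic enzymes rose and 3 fell, and 3 of 10 class II enzymes rose and 4 fell, Eprs1 being left out because it carries a domain of each class. Against the shares of all genes, 23.6% risen and 24.1% fallen, these lists of 7 to 13 genes were not tested, nor were they tested against each other.

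A DNA element of the C/EBP-ATF type reads TGATGNAA, of which TGATGCAA is the best known form. It was searched on both strands in the RefSeq promoter table of build GRCm38.p6, from 250 bases before to 50 after each annotated start. It was present in 1304 of 32851 promoters (3.97%), and TGATGCAA in 294 (0.895%). Of the 12 cytosolic members counted here, 4 held TGATGNAA (Aars1, Gars1, Tars1 and Yars1) and 3 held TGATGCAA (Aars1, Tars1 and Yars1). Of the 14 mitochondrial members counted 0 held either. Promoters of the other members, Hars1, Lars1, Nars1 and Hars2 among them, were not searched, so whether they hold the element is not known. Iars1 held TGATGCAA as well. A window of 30 bases around 1 match of each gene is shown because these are the searched synthetase promoters that hold the element. For Aars1 the window shows its other match, not the TGATGCAA form. All 5 genes were lower in each knockout under halofuginone, and so were Eprs1, Mars1 and Sars1, which held no match. In each knockout 17 of the 19 cytosolic members were lower, though not the same 17. The windows are printed along the gene's strand, 5′ to 3′, from RefSeq, with the match in capitals. In all but Yars1 the match lies on the opposite strand, so that the capitals show its reverse complement. A match is a run of letters and does not show that a factor binds there.
Aars1, chr8:111033840-111033869, plus strand: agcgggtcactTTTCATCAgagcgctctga
Gars1, chr6:55037960-55037989, plus strand: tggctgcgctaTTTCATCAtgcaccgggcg
Iars1, chr13:49682126-49682155, plus strand: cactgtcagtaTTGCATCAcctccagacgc
Tars1, chr15:11399655-11399684, minus strand: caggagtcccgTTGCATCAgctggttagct
Yars1, chr4:129189895-129189924, plus strand: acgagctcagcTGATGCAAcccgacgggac

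In knockout cells halofuginone lowered most cytosolic synthetases. In Atf4 KO cells 3 of 19 rose and 12 fell, with a median of -0.32, where 23.1% of all genes rose, 26.5% fell and the median of all genes was -0.04. In Cebpg KO cells 3 rose and 13 fell, with a median of -0.40, where 23.1% of all genes rose, 28% fell and the median of all genes was -0.03. Aars1, Wars1 and Yars1 rose in each of the 3 genotypes. Farsa, Hars1, Kars1, Qars1, Rars1 and Vars1 fell in each. Farsb, Gars1, Mars1 and Tars1 fell in both knockouts and did not pass the threshold in Rosa26 cells.

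Aars1 reached 219, 215 and 249 CPM in Atf4 KO cells with halofuginone, against 134, 136 and 143 CPM untreated, a rise of 0.73 ± 0.06. Cebpg KO cells reached 267, 262 and 291 CPM with halofuginone, against 182, 189.6 and 186 CPM untreated, a rise of 0.55 ± 0.06. Both rises were past the spread between libraries and smaller than the 1.22 of Rosa26 cells. Wars1 reached 203, 235 and 226 CPM in Atf4 KO cells with halofuginone, against 147, 153 and 167 CPM untreated (0.51 ± 0.08), and 247, 226 and 285 CPM in Cebpg KO cells with it, against 165, 174 and 170.2 CPM untreated (0.57 ± 0.08). Yars1 reached 92.9, 89.4 and 96.8 CPM in Atf4 KO cells with halofuginone, against 79.4, 79.0 and 78.5 CPM untreated (0.24 ± 0.05). Yars1 in Cebpg KO cells gave 122, 116 and 126 CPM with halofuginone, against 112, 107 and 112 CPM untreated. That rise of 0.14 ± 0.05 (adjusted p = 0.0373) was lost when any of 5 of the 6 libraries was left out, namely Cebpg KO halofuginone replicate 1 (adjusted p = 0.0882) or 3 (0.113), or untreated replicate 1 (0.0591), 2 (0.129) or 3 (0.054).

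The rise of Eprs1 did not pass the threshold in either knockout. It stood at 309.8, 296 and 330.4 CPM in Atf4 KO cells with halofuginone, against 289, 293 and 303 CPM untreated (0.08 ± 0.06, adjusted p = 0.3). It stood at 306, 299.8 and 325 CPM in Cebpg KO cells with halofuginone, against 302, 332 and 324 CPM untreated (-0.04 ± 0.06, adjusted p = 0.61). Treated and untreated libraries overlapped in each knockout. Sars1 gave 0.20 ± 0.08 in Atf4 KO and 0.12 ± 0.08 in Cebpg KO cells, and Cars1 gave 0.07 ± 0.06 and 0.09 ± 0.05; none of these passed.

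Lars1 and Nars1 moved in the opposite direction to Rosa26 cells. Lars1 gave 107, 99.4 and 108 CPM in Atf4 KO cells with halofuginone, against 130.5, 136 and 137 CPM untreated, a fold change of -0.36 ± 0.06. Lars1 in Cebpg KO cells gave 123, 126 and 125 CPM with halofuginone, against 142, 142 and 149 CPM untreated (-0.21 ± 0.06). Every treated knockout library lay below every untreated library of its genotype. Nars1 gave 139, 138 and 149.7 CPM in Atf4 KO cells with halofuginone, against 174, 181 and 175 CPM untreated (-0.31 ± 0.07). Nars1 in Cebpg KO cells gave 184, 189 and 208 CPM with halofuginone, against 217, 224 and 231 CPM untreated (-0.21 ± 0.06, adjusted p = 0.0098), a fall that did not pass without Cebpg KO halofuginone replicate 1 (adjusted p = 0.0551) or under upper-quartile scaling of the libraries (0.0662), which also ended the fall of Lars1 in Cebpg KO cells (0.0827). That scaling moved the median of all genes in this comparison to 0.08, against -0.03 with TMM.

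**Figure D3:**
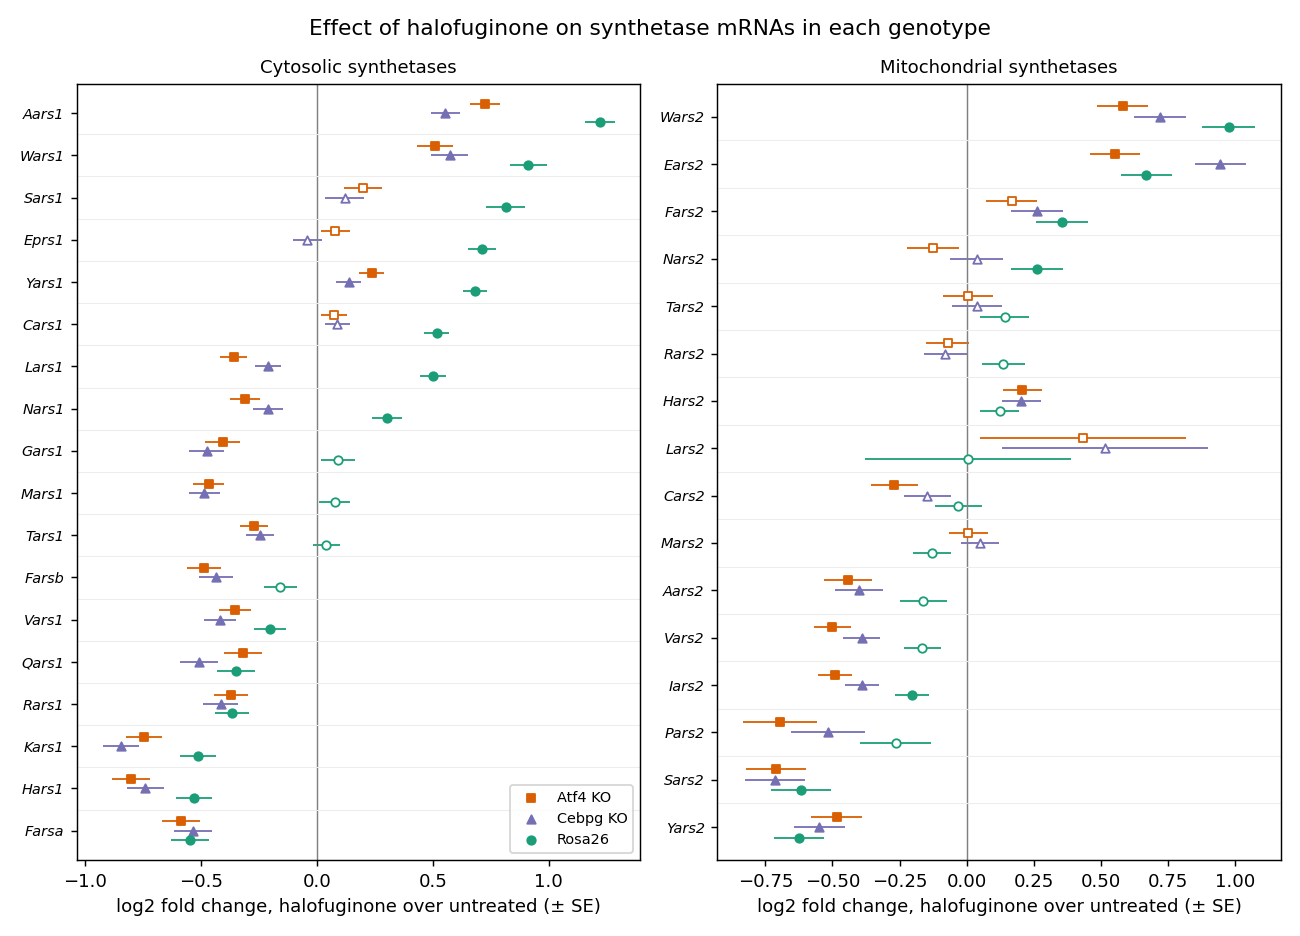
Log2 fold change of halofuginone over untreated cells (x axis, ± standard error) for 34 of the 36 synthetases (y axis) in Atf4 KO (squares), Cebpg KO (triangles) and Rosa26 cells (circles); filled symbols passed an adjusted p of 0.05. In the cytosolic panel the Rosa26 circles of Aars1, Wars1, Sars1, Eprs1, Yars1, Cars1, Lars1 and Nars1 stand to the right of both knockouts, and Farsa lies left of 0 in all 3 genotypes.

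The difference between the response of a knockout and that of Rosa26 cells was tested directly as an interaction. In Atf4 KO cells the halofuginone response was lower than in Rosa26 cells for 11 of 19 cytosolic members (median -0.40), and higher for 0; over all genes 4.01% were lower and 2.41% higher, with a median of -0.06. In Cebpg KO cells it was lower for 9 of 19 (median -0.34) and higher for 0, where 2.1% of all genes were lower and 0.374% higher. At an unadjusted p under 0.05 the counts were 14 lower and 0 higher in each knockout. Over all 14695 genes the counts at that cut were 1739 lower and 1183 higher for Atf4 KO. For Cebpg KO they were 1439 lower and 562 higher. Both contrasts use the same Rosa26 libraries and so are not independent.

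Lars1 had the largest Atf4 KO interaction, -0.86 ± 0.08 (adjusted p = 2.79e-06), and stood at -0.71 ± 0.08 in Cebpg KO cells (adjusted p = 2.19e-05). Eprs1 stood at -0.63 ± 0.09 in Atf4 KO cells (adjusted p = 0.000184) and had the largest interaction in Cebpg KO cells, -0.75 ± 0.09 (adjusted p = 3.12e-05). For Sars1 the values were -0.61 ± 0.12 in Atf4 KO and -0.70 ± 0.12 in Cebpg KO cells. Set beside them, the rises of Lars1, Eprs1 and Sars1 in Rosa26 cells were 0.50, 0.71 and 0.81. Aars1 gave -0.49 ± 0.09 in Atf4 KO and -0.67 ± 0.09 in Cebpg KO cells, Nars1 -0.61 ± 0.09 and -0.51 ± 0.09, Yars1 -0.45 ± 0.07 and -0.55 ± 0.07, and Cars1 -0.44 ± 0.08 and -0.43 ± 0.08. Gars1 (-0.50 and -0.57) and Mars1 (-0.54 and -0.56) also passed in each knockout, although neither rose in Rosa26 cells. Iars1 gave -0.52 ± 0.08 in Atf4 KO and -0.66 ± 0.08 in Cebpg KO cells.

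Tars1, the threonyl enzyme (-0.31 ± 0.08, adjusted p = 0.0274), and Wars1 (-0.40 ± 0.11, adjusted p = 0.035) passed in Atf4 KO cells; in Cebpg KO cells they stood at -0.29 ± 0.08 (adjusted p = 0.0777) and -0.34 ± 0.11 (adjusted p = 0.135). The Tars1 call was lost without Atf4 KO halofuginone replicate 1 (adjusted p = 0.076), Atf4 KO untreated replicate 2 (0.0597) or 3 (0.0711), Rosa26 halofuginone replicate 2 (0.0574) or Rosa26 untreated replicate 3 (0.0841), and with the compared groups alone (0.0594). The Wars1 call was lost without Atf4 KO halofuginone replicate 1 (0.0983), Atf4 KO untreated replicate 2 (0.0647) or 3 (0.103), Rosa26 halofuginone replicate 1 (0.0968), or Rosa26 untreated replicate 1 (0.0953), 2 (0.0575) or 3 (0.066), and with RLE scaling (0.0513). Of the 13 genes often given as ATF4 targets, 12 had a lower response in Atf4 KO and 10 in Cebpg KO cells. Of the 7 other cytosolic members the counts were 0 and 0 (3 and 2 lower and 0 higher at an unadjusted p under 0.05), and their medians were -0.04 and -0.16. At that unadjusted cut 1739 and 1439 of all 14695 genes were lower.

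Under halofuginone, cytosolic synthetase mRNA was lower in each knockout than in Rosa26 cells. In Atf4 KO cells 17 of 19 members were lower and 0 higher (median -0.87), where 16.3% of all genes were lower, 11.8% higher and the median of all genes was 0.001. In Cebpg KO cells 17 of 19 were lower and 0 higher (median -0.56), where 13.1% of all genes were lower and 5.74% higher. Under the alternatives the counts of lower members ran from 16 to 19 in Atf4 KO and 15 to 19 in Cebpg KO cells. In Cebpg KO cells Qars1 and Rars1 were each lost without Cebpg KO halofuginone replicate 1 (adjusted p = 0.13 and 0.143) or Rosa26 halofuginone replicate 2 (0.13 and 0.0754). All 19 fold changes were below 0 in each comparison, also with RLE and upper-quartile scaling. Among the 2 that did not pass were Qars1 in Atf4 KO cells and Farsa in Cebpg KO cells. These comparisons share the Rosa26 halofuginone libraries, which also enter the interactions.

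Cars1 stood lowest against Rosa26 cells, at 54.3, 52.7 and 49.6 CPM in Atf4 KO cells with halofuginone, against 119, 124 and 122 CPM in Rosa26 cells with it (-1.22 ± 0.05, adjusted p = 1.32e-11). Each Atf4 KO library held less than 0.5 times the level of each Rosa26 library. Cebpg KO cells lay between, at 82.1, 78.6 and 76.1 CPM (-0.62 ± 0.05, adjusted p = 1.64e-07). Lars1 stood at -1.20 ± 0.06 in Atf4 KO and -0.95 ± 0.06 in Cebpg KO cells, Nars1 at -1.13 ± 0.06 and -0.68 ± 0.06, and Yars1 at -1.08 ± 0.05 and -0.70 ± 0.05. For Gars1, the glycyl enzyme, the values were -1.01 ± 0.07 in Atf4 KO and -0.76 ± 0.07 in Cebpg KO cells, and for Aars1 -0.996 ± 0.06 and -0.73 ± 0.06. Eprs1 stood at -0.87 ± 0.06 in Atf4 KO and -0.88 ± 0.06 in Cebpg KO cells. The median of the 13 genes often given as ATF4 targets was -0.93 in Atf4 KO and -0.68 in Cebpg KO cells, and that of the 7 other cytosolic members -0.45 and -0.25.

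Without the drug, Atf4 KO cells already held less cytosolic synthetase mRNA than Rosa26 cells. Of 19 members 17 were lower and 0 higher (median -0.37), where 14.3% of all genes were lower, 11.7% higher and the median of all genes was 0.02; with upper-quartile scaling 57.6% of the calls over all genes were higher, against 44.9% with TMM, and the cytosolic median was -0.30. Cars1 stood at 48.6, 51.5 and 48.6 CPM in untreated Atf4 KO cells, against 86.4, 85.2 and 83.7 CPM in untreated Rosa26 cells, a fold change of -0.78 ± 0.05 (adjusted p = 3.43e-08). Yars1 stood at 79.4, 79.0 and 78.5 CPM in untreated Atf4 KO cells, against 125, 122 and 121 CPM in untreated Rosa26 cells (-0.64 ± 0.05, adjusted p = 1.72e-07). The groups did not overlap for either gene. Tars1 followed at -0.57 ± 0.06, Nars1 at -0.52 ± 0.06, Gars1 at -0.51 ± 0.07 and Aars1 at -0.50 ± 0.06, while Eprs1 stood at -0.24 ± 0.06 and Farsa at -0.26 ± 0.08; the last was lost without any of 5 of the 6 libraries compared (adjusted p from 0.0528 to 0.0775).

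In untreated Cebpg KO cells the 19 fold changes were again all below 0, but small. Lars1 (-0.23 ± 0.06), Tars1 (-0.23 ± 0.06) and Cars1 (-0.20 ± 0.05) were lower and 0 members higher (median -0.17), where 2.29% of all genes were lower and 2.71% higher. At an unadjusted p under 0.05, 13 were lower, where 1746 of all 14695 genes were lower and 1735 higher. Lars1 stood at 142, 142 and 149 CPM in untreated Cebpg KO cells, against 164, 180.4 and 164 CPM in untreated Rosa26 cells, with no overlap (adjusted p = 0.0234). The calls were not stable to leaving out a library. That of Lars1 was lost without Cebpg KO untreated replicate 1 (adjusted p = 0.0793) or 2 (0.103) or Rosa26 untreated replicate 2 (0.129). That of Tars1 was lost without Cebpg KO untreated replicate 1 (0.0738), 2 (0.109) or 3 (0.102), or Rosa26 untreated replicate 1 (0.115) or 2 (0.134), and that of Cars1 without any 1 of the 6 libraries compared (0.0714 to 0.174). Over all 36 synthetases, Wars2 included, 14 were lower and 1 higher with RLE scaling, against 3 and 1 with TMM.

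**Figure D4:**
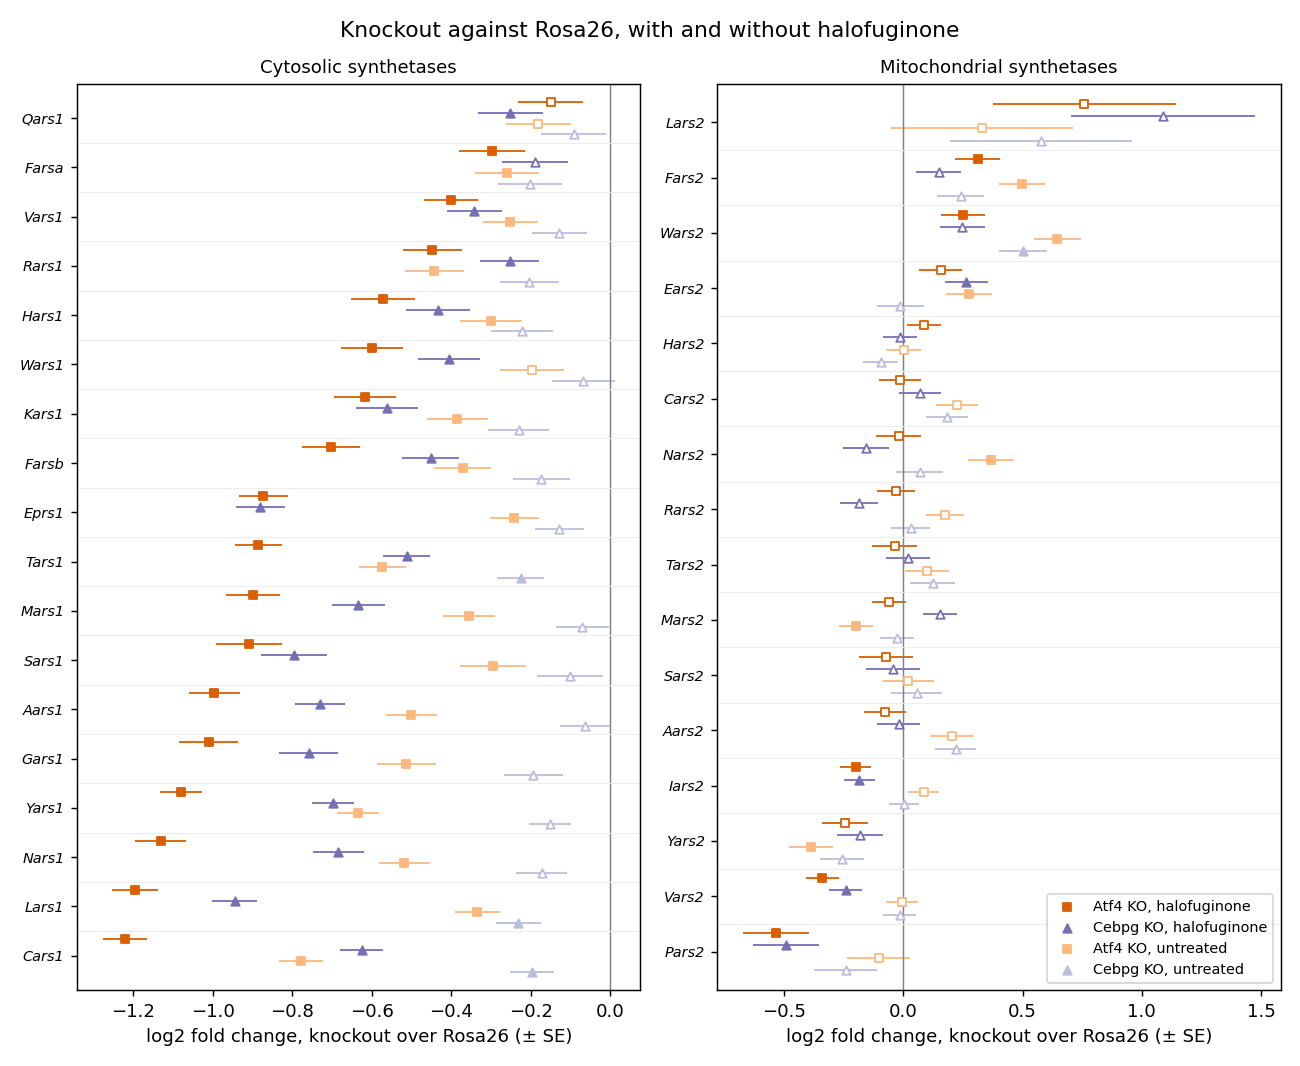
Log2 fold change of each knockout over Rosa26 cells (x axis, ± standard error) for 34 of the 36 synthetases (y axis), with halofuginone in dark and untreated in light symbols, Atf4 KO as squares and Cebpg KO as triangles; filled symbols passed an adjusted p of 0.05. All cytosolic symbols lie left of 0, the dark squares reaching -1.22 for Cars1, and mitochondrial symbols lie on either side of 0.

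Set against each other under halofuginone, Cebpg KO cells held more of 6 cytosolic synthetases than Atf4 KO cells and less of 0. Over all genes 0.538% were higher and 0.463% lower. At an unadjusted p under 0.05, 11 were higher and 0 lower, where 758 of all 14695 genes were higher and 1071 lower. Cars1 was higher by 0.60 ± 0.05 (adjusted p = 2.02e-05), Nars1 by 0.45 ± 0.06 (0.00323), Yars1 by 0.38 ± 0.05 (0.00223) and Tars1 by 0.37 ± 0.06 (0.00442). For Cars1 the libraries stood at 82.1, 78.6 and 76.1 CPM in Cebpg KO cells, against 54.3, 52.7 and 49.6 CPM in Atf4 KO cells, and for Nars1 at 184, 189 and 208 CPM in Cebpg KO cells, against 139, 138 and 149.7 CPM in Atf4 KO cells. Iars1 was higher by 0.33 ± 0.06 (adjusted p = 0.0108, and 0.0713 without Cebpg KO halofuginone replicate 1). Eprs1 stood at -0.01 ± 0.06, a difference whose groups overlapped. Aars1 (0.27 ± 0.06, adjusted p = 0.0468) and Lars1 (0.25 ± 0.06, adjusted p = 0.0392) passed in the fit without a block, but not with the replicate number as a block (adjusted p = 0.0658 and 0.0679). Aars1 was also lost without Atf4 KO halofuginone replicate 1 (0.193) or 2 (0.104) or Cebpg KO halofuginone replicate 1 (0.12) or 3 (0.131), and Lars1 without Atf4 KO halofuginone replicate 1 (0.109) or 2 (0.0941) or Cebpg KO halofuginone replicate 1 (0.112), 2 (0.0535) or 3 (0.0744). When the fit held the 6 libraries of this comparison alone, 0 members passed. Untreated Cebpg KO cells also held more of Cars1 (mean 74.3 CPM, against 49.6 CPM in untreated Atf4 KO cells) and Nars1 (224 against 176 CPM). The same held for the means of Yars1 (110 against 78.9 CPM) and Tars1 (159 against 125 CPM), so these means differed in the same direction without halofuginone. The untreated knockouts were not tested against each other here, nor was the halofuginone response of one against that of the other.

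Mitochondrial synthetases showed no common direction. With halofuginone 3 of 17 rose and 8 fell in Atf4 KO cells, 4 rose and 7 fell in Cebpg KO cells, and 4 rose and 4 fell in Rosa26 cells, with medians of -0.13, -0.08 and -0.03; over all genes 23.1% to 23.6% rose and 24.1% to 28% fell. The median in Cebpg KO and in Rosa26 cells turned to 0.03 and 0.04 with upper-quartile scaling. Wars2, the tryptophanyl enzyme, rose in every genotype. It stood at 24.5, 24.8 and 21.2 CPM in Atf4 KO cells with halofuginone, against 15.5, 15.6 and 16.03 CPM untreated (0.58 ± 0.09), at 25.8, 21.8 and 22.5 CPM in Cebpg KO cells with it, against 13.2, 14.9 and 14.7 CPM untreated (0.72 ± 0.10), and at 20.5, 18.8 and 19.9 CPM in Rosa26 cells with it, against 10.2, 10.8 and 9.09 CPM untreated (0.98 ± 0.10, adjusted p = 8.54e-08). No treated library overlapped with its untreated group. Ears2, the glutamyl enzyme, rose by 0.55 ± 0.09 in Atf4 KO, 0.95 ± 0.10 in Cebpg KO and 0.67 ± 0.09 in Rosa26 cells.

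Yars2, the tyrosyl enzyme, gave 24.8, 27.7 and 25.2 CPM in Rosa26 cells with halofuginone, against 38.3, 39.1 and 42.3 CPM untreated (-0.62 ± 0.09). Sars2, the seryl enzyme, gave 20.9, 19.7 and 21.98 CPM with halofuginone, against 30.4, 34.3 and 31.3 CPM untreated (-0.62 ± 0.11). In both the treated values lay below all untreated ones. Yars2 and Sars2 also fell in each knockout, with fold changes of -0.48 and -0.71 in Atf4 KO and of -0.55 and -0.72 in Cebpg KO cells. Of their cytosolic counterparts, Yars1 rose in all 3 genotypes and Sars1 in Rosa26 cells.

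Some mitochondrial calls of Rosa26 cells were lost when 1 library was left out. Nars2 (0.26 ± 0.10, adjusted p = 0.0303) did not pass without Rosa26 halofuginone replicate 3 (0.129) or untreated replicate 2 (0.0966) or 3 (0.101), and Iars2 (-0.20 ± 0.06, adjusted p = 0.0118) did not pass without halofuginone replicate 1 (0.081) or untreated replicate 2 (0.0628). Iars2 shares 22.9% of its annotated exon length with Rab3gap2 on the opposite strand, and the strand setting of the authors' counting is not given in the sources used here. Fars2, the phenylalanyl enzyme, rose by 0.35 ± 0.10 (adjusted p = 0.00511).

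Between genotypes, counts of mitochondrial members were small, and many calls were lost when a single library was left out. In untreated Atf4 KO cells 4 were higher than in Rosa26 cells (Ears2, Fars2, Nars2 and Wars2) and 2 lower (Mars2 and Yars2), with a median of 0.10. Over all genes 11.7% were higher and 14.3% lower there. In untreated Cebpg KO cells 1, Wars2, was higher and 0 lower (median 0.03), where the shares of all genes were 2.71% and 2.29%. At an unadjusted p under 0.05, 3 were higher and 2 lower, where 1735 of all 14695 genes were higher and 1746 lower. In untreated Atf4 KO cells Ears2 was lost without any 1 of the 6 libraries compared (adjusted p from 0.0605 to 0.145), and Mars2 without Atf4 KO untreated replicate 2 (0.121) or 3 (0.145) or Rosa26 untreated replicate 1 (0.219) or 3 (0.0597), and with upper-quartile scaling (0.22). With halofuginone 2 were higher (Fars2 and Wars2) and 4 lower (Iars2, Pars2 and Vars2 among them) in Atf4 KO cells (median -0.04), and 1 higher (Ears2) and 3 lower (Iars2, Pars2 and Vars2) in Cebpg KO cells (median -0.02). Over all genes 11.8% were higher and 16.3% lower in Atf4 KO, and 5.74% higher and 13.1% lower in Cebpg KO cells. The sign of both medians turned with upper-quartile scaling, to 0.03 and 0.07. With single libraries left out, the Atf4 KO counts ran from 0 to 2 higher and 2 to 5 lower, and the Cebpg KO counts from 0 to 1 higher and 1 to 2 lower. Wars2 was higher in the untreated knockouts by 0.65 ± 0.10 in Atf4 KO (adjusted p = 9.86e-05) and 0.50 ± 0.10 in Cebpg KO cells (adjusted p = 0.00819), 2 comparisons that share the untreated Rosa26 libraries. With halofuginone, Wars2 in Atf4 KO cells (0.25 ± 0.09, adjusted p = 0.0477) was lost without any of 5 of the 6 libraries compared (0.0619 to 0.203), and Ears2 in Cebpg KO cells (0.26 ± 0.09, adjusted p = 0.0487) without any of 5 (0.0599 to 0.214). In Atf4 KO cells Fars2 was lost without Atf4 KO halofuginone replicate 2 (0.0773) or Rosa26 halofuginone replicate 2 (0.103) or 3 (0.0599), and Iars2 without Atf4 KO halofuginone replicate 1 (0.0936) or 2 (0.0783) or Rosa26 halofuginone replicate 2 (0.054) or 3 (0.0561). In Cebpg KO cells Iars2 was lost without any of 5 of the 6 libraries (0.0633 to 0.195) and with RLE (0.0702) or upper-quartile scaling (0.242). Vars2 was lost there without Cebpg KO halofuginone replicate 2 (0.0519) or 3 (0.0726) or Rosa26 halofuginone replicate 1 (0.0937), and with upper-quartile scaling (0.159). Pars2 gave 8.29, 8.55 and 9.19 CPM in Atf4 KO and 7.27, 10.7 and 8.96 CPM in Cebpg KO cells with halofuginone, against 11.6, 14.2 and 12.02 CPM in Rosa26 cells with it. Its fold change was -0.54 ± 0.14 in Atf4 KO (adjusted p = 0.00582) and -0.49 ± 0.14 in Cebpg KO cells (adjusted p = 0.0161), the second call being lost without Cebpg KO halofuginone replicate 1 (0.118) or Rosa26 halofuginone replicate 2 (0.0864). Untreated Pars2 stood at 14.5, 16.1 and 11.5 CPM in Atf4 KO, 13.3, 12.4 and 12.6 CPM in Cebpg KO and 14.5, 15.7 and 15.1 CPM in Rosa26 cells, and neither knockout passed.

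Of the 17 mitochondrial members 1 passed the interaction test in Atf4 KO cells and 0 in Cebpg KO cells, where 4.01% and 2.1% of all genes were lower. Vars2, the valyl enzyme, had a lower halofuginone response in Atf4 KO than in Rosa26 cells (-0.34 ± 0.10, adjusted p = 0.0427), at 34.2, 34.1 and 36.4 CPM with halofuginone, against 48.4, 50.7 and 49.1 CPM untreated in Atf4 KO cells, and 47.4, 41.8 and 43.4 CPM with halofuginone, against 49.7, 46.9 and 52.2 CPM untreated in Rosa26 cells. The call was lost without any of 10 single libraries (adjusted p from 0.0639 to 0.124), without Rosa26 halofuginone replicate 1 at the upper end. With all libraries kept it was also lost with RLE scaling (0.0832), DESeq2 (0.0651), the compared groups alone (0.0789) and the replicate block (0.0609). In Cebpg KO cells 0 of 17 passed, with 0 higher and 1 lower at an unadjusted p under 0.05 and 0 with DESeq2. At that unadjusted cut 562 of all 14695 genes were higher and 1439 lower. Pars2 stood at -0.43 ± 0.19 in Atf4 KO (adjusted p = 0.207) and -0.25 ± 0.19 in Cebpg KO cells (adjusted p = 0.659). Cebpg KO and Atf4 KO cells with halofuginone differed in 0 of 17.

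Lars2 stood apart in level and in spread. It gave 2771, 3638 and 7607 CPM in Atf4 KO, 3342, 9478 and 4797 CPM in Cebpg KO and 1921, 3485 and 2879 CPM in Rosa26 cells with halofuginone. Untreated, it gave 3623, 2859.8 and 3904 CPM in Atf4 KO, 4227, 3980.5 and 4113 CPM in Cebpg KO and 2875, 2258 and 3124 CPM in Rosa26 cells. In each library that is 3.18 to 16.6 times the sum of the other 16 mitochondrial members. No comparison of Lars2 passed the threshold, and the widest, Cebpg KO against Rosa26 cells with halofuginone, was 1.09 ± 0.39 (adjusted p = 0.0662) with overlapping groups. Rn18s-rs5, an annotated copy of ribosomal RNA sequence, moved with it: the 2 highest libraries of Lars2, Cebpg KO halofuginone replicate 2 and Atf4 KO halofuginone replicate 3, were also the 2 highest of Rn18s-rs5, at 71045 and 52012 CPM, against 23481 to 41061 CPM in the other 16. Lars2 amounted to 7.91 to 14.6 CPM per 100 CPM of Rn18s-rs5. Whether reads of ribosomal origin were counted to Lars2 was not tested, and its level here is not taken as that of the leucyl enzyme's mRNA.

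**Figure D5:**
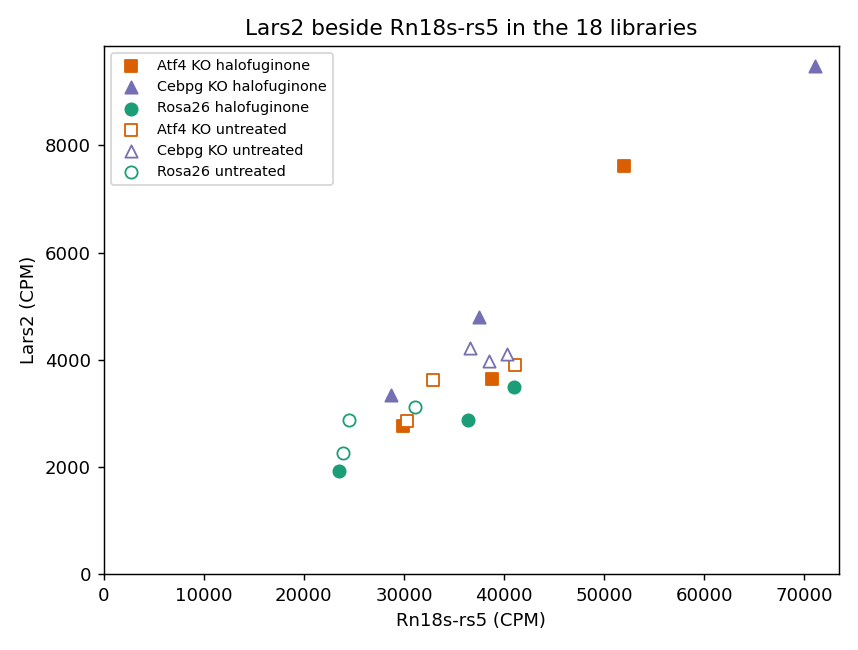
Level of Lars2 (y axis, CPM) against Rn18s-rs5, a transcript of ribosomal RNA sequence (x axis, CPM), with 1 point per library; squares are Atf4 KO, triangles Cebpg KO and circles Rosa26, filled with halofuginone and open untreated. Cebpg KO halofuginone replicate 2 (9478 CPM of Lars2) and Atf4 KO halofuginone replicate 3 (7607 CPM) stand apart at the upper right.

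Of 15 other genes that supply charged transfer RNA, 2 rose and 4 fell with halofuginone in Rosa26 cells (median -0.06), where 23.6% of all genes rose and 24.1% fell. In Atf4 KO cells 2 rose and 3 fell, where 23.1% of all genes rose and 26.5% fell. In Cebpg KO cells 4 rose and 2 fell, where 23.1% of all genes rose and 28% fell. Xpot, the exportin that carries transfer RNA out of the nucleus, was one of the 2 that rose, with Pstk. It stood at 406, 442 and 404 CPM in Rosa26 cells with halofuginone, against 201, 196 and 194 CPM untreated (1.09 ± 0.05, adjusted p = 1.73e-12). Its interaction was -0.54 ± 0.07 in Atf4 KO and -0.81 ± 0.07 in Cebpg KO cells. Of the scaffold proteins of the multi-synthetase complex, Aimp2 fell by 0.50 ± 0.08 in Rosa26 cells, whereas Aimp1 (0.11 ± 0.12) and Eef1e1 (-0.21 ± 0.11) did not pass. Pstk, a kinase on the route to selenocysteinyl-tRNA, rose by 0.71 ± 0.11. Tars3, a cytosolic threonyl-tRNA synthetase whose symbol lies outside the rule, fell by 0.50 ± 0.12, and Gatc, a subunit of the enzyme that makes mitochondrial glutaminyl-tRNA, by 0.44 ± 0.10.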

How the data were processed

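Poly-A RNA of 18 libraries was sequenced after a directional dUTP preparation, per the labels' protocols. The authors deposited raw read counts per gene, made with Trimmomatic, STAR and HTSeq on GRCm39, per the submitters' processing notes; the sources used here give no versions, annotation release or strand setting. The table held 14695 genes, none with a third-highest level under 0.597 CPM. Names were blank for 449 genes, and 431 were filled by identifier from a GRCm38 annotation.

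All libraries entered 1 edgeR fit (edgeR 4.0.16, R 4.3.3) with 1 term per group, TMM scaling and robust quasi-likelihood F tests, adjusted by Benjamini-Hochberg over all genes; SEs were taken from the fold change and F. Beside a level, ± is the SD over 3 libraries. Alternatives were RLE and upper-quartile scaling, DESeq2 1.42.0, a filter of 2 CPM in 3 libraries (11861 genes), the compared groups alone, a replicate block, and leaving out libraries. The scripts were tested on simulated data.

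Same-numbered libraries deviated together in Cebpg KO against Atf4 KO with halofuginone (correlations of 0.255, 0.246 and 0.527), so block values stand beside that result. The labels give no pairing, and replicate 1 did not correlate best with its own number. Replicate 3 was also the lowest-Malat1 library of Atf4 KO and of Cebpg KO cells with halofuginone, so a pairing is not shown. Exon lengths and overlaps came from GENCODE M21 (GRCm38) and promoters from RefSeq (GRCm38.p6); no coordinates of the deposited counts were used. Members and lists were chosen with earlier results of these data known. Library values are given by rule for the drug target Eprs1, its counterpart Pars2, Lars2, the 4 most raised and 4 most lowered members past the threshold with halofuginone in Rosa26 cells, the 4 smallest p of each interaction and the 2 smallest of each untreated knockout comparison; other genes given by library were chosen after their values were seen. The values of 2 members, which count in every total, and 1 promoter window are not reported here.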

Additional observations from a re-analysis of the deposited data

Results flagged for a closer look

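The halofuginone response of 12 synthetases differed between Atf4 KO and Rosa26 cells by the interaction test, and of 9 between Cebpg KO and Rosa26 cells. All 21 differences were negative, meaning a response lower in the knockout. In Atf4 KO cells the differences were -0.86 for Lars1, -0.63 for Eprs1, -0.61 for Nars1, -0.61 for Sars1, -0.54 for Mars1, -0.50 for Gars1, -0.49 for Aars1, -0.45 for Yars1, -0.44 for Cars1, -0.40 for Wars1, -0.34 for Vars2 and -0.31 for Tars1. In Cebpg KO cells they were -0.75 for Eprs1, -0.71 for Lars1, -0.70 for Sars1, -0.67 for Aars1, -0.57 for Gars1, -0.56 for Mars1, -0.55 for Yars1, -0.51 for Nars1 and -0.43 for Cars1. The differences of Tars1, Wars1 and Vars2 in Atf4 KO cells did not pass without several single libraries or under 1 or more other alternatives, as given with them above. Those of the other 9 genes passed in each alternative of both knockouts.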

How the results depend on the processing

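Over the 36 members and Iars1 in 10 comparisons, 182 fold changes passed the threshold and 143 of them passed under every alternative, while of 188 that did not pass 58 did so under at least 1; 0 reversed. The count that moved most was that of untreated Cebpg KO against Rosa26 cells, where 4 synthetases passed, against 15 with RLE scaling, 17 with DESeq2, 8 with the filter of 2 CPM, 20 with the compared groups alone, 19 without the lowest-Malat1 library of each halofuginone group and 1 to 3 with single libraries left out. In Cebpg KO against Atf4 KO cells with halofuginone 6 passed, against 0 with the compared groups alone (where 1 gene of the whole table passed) and 4 to 9 with single libraries left out. The total over all 36 stayed within 1.5 times in the other 8 comparisons, but smaller counts moved further: among mitochondrial members, 4 higher in untreated Atf4 KO cells ran from 3 to 8, 2 higher and 4 lower in Atf4 KO cells with halofuginone from 0 to 2 and 2 to 5, 1 higher and 3 lower in Cebpg KO cells with it from 0 to 4 and 0 to 2, and 4 raised by halofuginone in Cebpg KO cells from 2 to 4, and the 3 cytosolic members raised by it in each knockout ran from 3 to 5 in Atf4 KO and 2 to 5 in Cebpg KO cells. With the replicate number as a block, 26, 27 and 23 synthetases passed for halofuginone in Atf4 KO, Cebpg KO and Rosa26 cells, as without it. In Atf4 KO against Rosa26 cells with halofuginone 23 passed, and in Cebpg KO against Rosa26 cells with it 18 (21 without the block). The untreated comparisons gave 22 (23) and 3 (4), and Cebpg KO against Atf4 KO cells with halofuginone 4 (6). The Atf4 KO and Cebpg KO interactions gave 11 (12) and 9 (9). Outside Cebpg KO against Atf4 KO cells, correlations of same-numbered libraries ran from -0.687 to 0.363. In no comparison did every library correlate best with its own number, so the block rests on the number alone. The counts of 0 cytosolic synthetases higher in a knockout than in Rosa26 cells stayed 0 with DESeq2. Scaling moved the share of higher calls: over all genes it was 26.2% with RLE, against 54.2%, in untreated Cebpg KO cells, 52.2% with upper-quartile scaling, against 41.9%, in Atf4 KO and 50.7%, against 30.4%, in Cebpg KO cells with halofuginone, and 59.0% with RLE, against 37.5%, and 40.7%, against 15.2%, for the Atf4 KO and Cebpg KO interactions. Over the synthetases, 8 were higher and 18 lower with upper-quartile scaling in untreated Atf4 KO cells, against 4 and 19, and 4 and 16, against 1 and 20, in Cebpg KO cells with halofuginone. The cause of these shifts was not tested. With 3 libraries a group and Pars2 at 7.27 to 16.1 CPM, its standard errors of 0.13 to 0.14 between groups were wider than those of Eprs1 at 0.06, which limits what could be detected for the least abundant members.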
